A study of Mus musculus with 24 samples.

Results

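Mouse marrow-derived mesenchymal stem cells (MSC) kept for 15 days in osteogenic medium were compared with the same kind of cells before differentiation, over all measured genes. The comparison used 6 of the 24 RNA-seq libraries of the study, chosen by their labels alone: 3 osteogenic day 15 vehicle libraries and 3 undifferentiated day 0 vehicle libraries. MSC are stromal cells of bone marrow that can give rise to osteoblasts and adipocytes. Cells of both groups came from cryopreserved stocks of at most 10 passages, were grown in MEMα with 10% fetal bovine serum, and received ethanol, the solvent used as vehicle, for 24 hours before RNA was taken. The day 15 cells had been grown to confluency and then moved to a medium that holds ascorbic acid at 50 µg/mL and β-glycerophosphate at 10 mM. The day 0 cells received no differentiation medium. The remaining libraries are osteogenic day 7 and adipogenic day 7 cultures and cultures treated with 100 nM of the vitamin D hormone (VD3).

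No undifferentiated library of a later day exists among the 24, so the effect of the medium and that of 15 days in culture cannot be told apart. Whether the 3 libraries of a group are separate cultures is not in the labels. The p-values and standard errors therefore cover only the spread among libraries within groups, which may be technical. That spread was estimated over all 8 groups of the 24 libraries, not from the 6 libraries compared alone. A lower value in a bulk library can mean fewer cells of a type or less RNA per cell, and these cannot be told apart here either.

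Ascorbic acid is a cofactor of the enzymes that hydroxylate collagen, and β-glycerophosphate is a source of phosphate for mineral. Osteoblasts lay down a matrix rich in type I collagen, add phosphoproteins and osteocalcins that bind calcium, and some become osteocytes buried in that matrix. Secreting such an amount of protein demands amino acids, charged tRNA and folding capacity, and the factor Atf4, which drives genes of amino acid supply, is known as a regulator of osteoblasts.

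Levels are RPKM, reads scaled to transcript length and to library size, as deposited by the authors and summed by gene symbol. Scaling to length lets genes of different length be compared only roughly. For 3470 symbols several transcripts were summed, and their levels may depend on how many transcripts are listed. A log2 value is the difference of day 15 minus day 0 on the log2(RPKM + 1) scale, which understates the change of genes with low levels. Genes are said to rise, fall or be higher or lower where limma's adjusted p was under 0.05. Levels with ± are mean and SD over 3 libraries, and log2 differences with ± carry their standard error (SE). The osteogenic day 7 vehicle libraries are given as levels with no test.

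Depth estimated from low values was 31.9, 34.8 and 44.2 M reads in the day 15 libraries and 8.48, 9.72 and 7.12 M reads in the day 0 libraries. The day 0 libraries carried signal on sensory receptor genes, 1488 genes for smell, pheromones and taste that are normally silent in stroma. Their median level was 0.265, 0.427 and 0.309 RPKM at day 15 and 4.172, 3.504 and 4.932 RPKM at day 0. This signal was larger on genes with little GC: in the day 0 libraries its mean over the 3 medians was 4.83 RPKM at 42 to 44% GC and 1.07 RPKM from 52% GC on. Unless a GC range is given, a sensory median named below is over all GC. From 11943 to 12686 genes reached 1 RPKM at day 15, against 20122 to 20956 at day 0. A day 0 level of a few RPKM therefore cannot be told apart from this signal, and the largest changes below are taken from genes whose mean over the 6 libraries was 20 RPKM or more. A gene can reach that mean through 1 group alone, so counts at that level describe the genes and do not test a list. Day 0 VD3 replicate 2, the single day 0 library with a low sensory median (0.456 RPKM), serves below as a second look at day 0 levels. It is 1 library, and its cells received VD3. Atf4 had 72.7 RPKM in it and a mean of 70.7 RPKM in day 0 vehicle. Mmp13 had 219 and 13.7 RPKM, and Col6a2 14.6 and 66.0 RPKM. Whether such a difference comes from VD3, the lower sensory signal or that library alone was not tested.

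**Figure D1:**
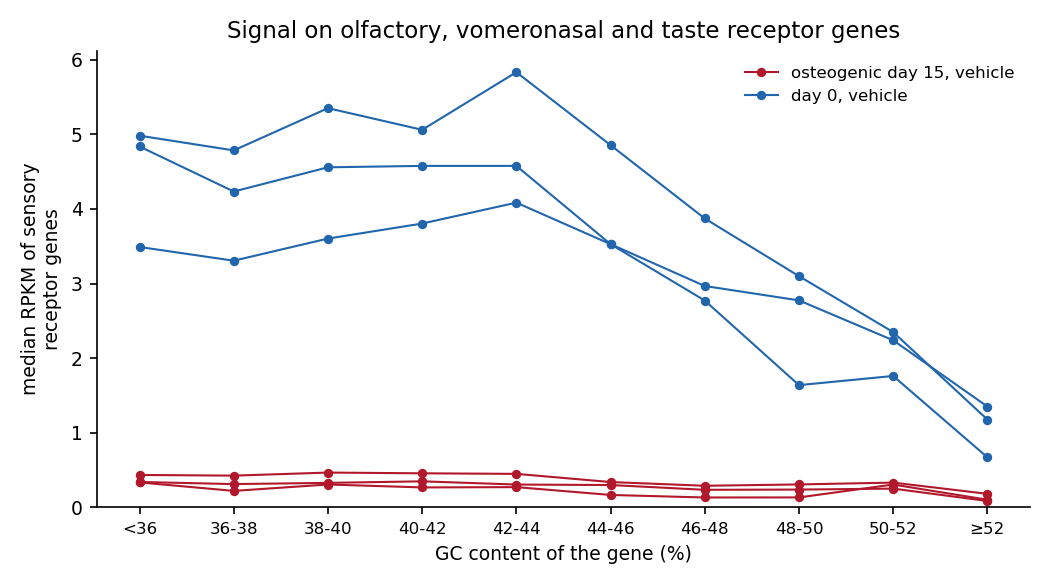
Median RPKM of sensory receptor genes (vertical axis) by GC content of the gene in percent (horizontal axis), one line per library, with day 15 in red and day 0 in blue. The day 0 lines run well above the day 15 lines in every bin and come down toward high GC, from a mean of 4.44 RPKM under 36% GC to 1.07 RPKM from 52% on.

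Of 21097 genes tested, 3692 (17.5%) were higher and 11260 (53.4%) lower at day 15, with a median log2 difference of -0.55. Of the 1465 sensory receptor genes tested, 0 were higher and 1450 lower. Among the 3502 genes whose mean was 20 RPKM or more, 1806 (51.6%) were higher and 616 (17.6%) lower, with a median of 0.28. List shares below stand beside the shares of all genes as description only, since those include many genes of low level. At that level 257 genes were called and at least 2-fold higher, and 225 at least 2-fold lower. The split depended on scaling. Median-ratio rescaling gave 2391 higher and 317 lower and quantile normalization 1264 higher and 844 lower. They moved the median of these 3502 genes by 0.33 and -0.18, so changes under about that size have no fixed direction.

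**Figure D2:**
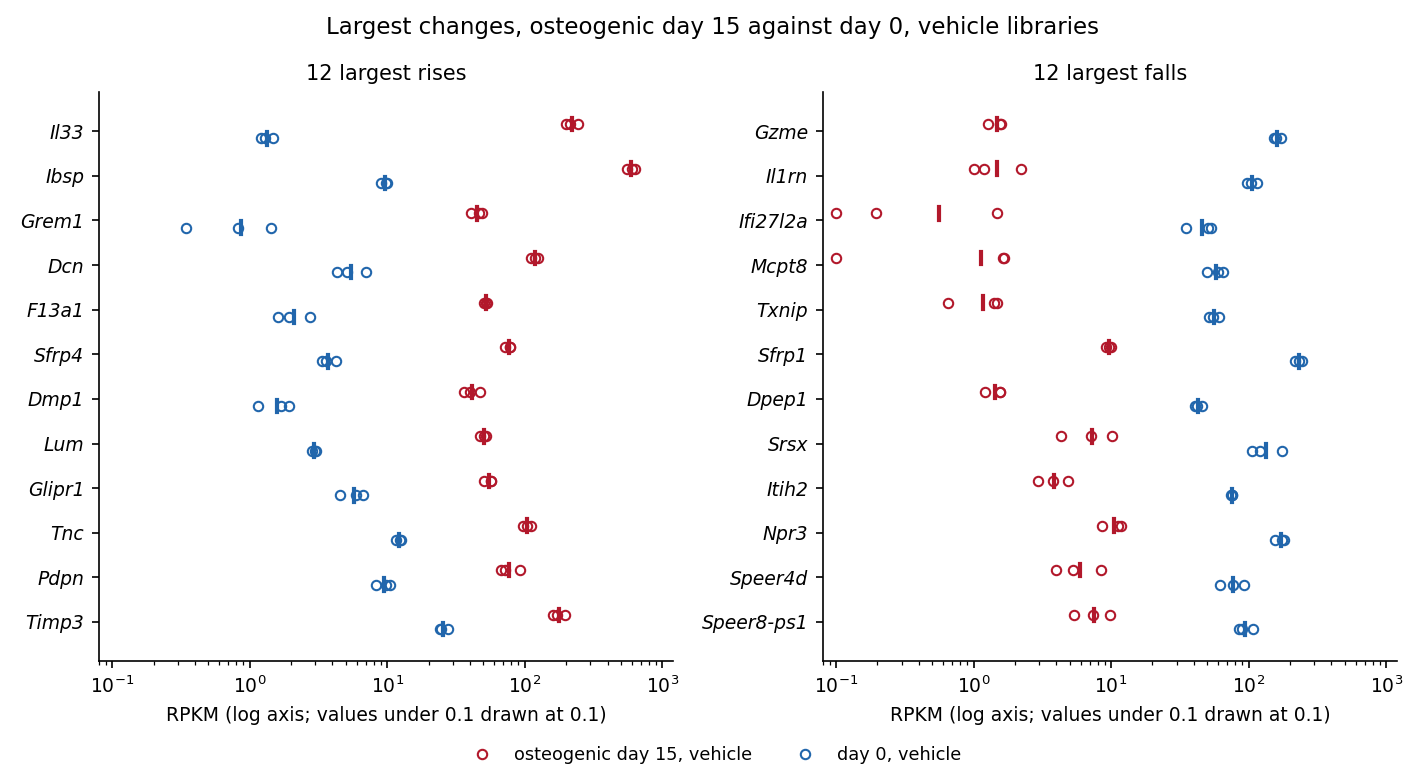
RPKM in each library (open circles, log axis) with the group mean (bar) for the 12 largest rises and the 12 largest falls among genes whose mean was 20 RPKM or more, day 15 in red above day 0 in blue. The circles of the groups do not overlap for any of these genes, as the choice of genes required. Il33 spans the widest gap among the rises and Gzme among the falls.

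Of 8 mineral-binding proteins of bone matrix tested, 5 were higher (62.5%, beside 17.5% of all genes), osteopontin and matrix Gla protein were lower and Mepe was not called. The median log2 difference was 1.26, against -0.55 over all genes. Of the 5 whose mean was 20 RPKM or more, 3 were higher and 2 lower, where 51.6% of all genes of that level were higher. Ibsp, the bone sialoprotein that nucleates mineral, stood at 555, 635 and 599.7 RPKM at day 15 and at 9.95, 9.73 and 8.97 RPKM at day 0. All 3 day 15 libraries lay far above day 0, and the log2 difference was 5.82 ± 0.10 (SE; adjusted p = 1.56e-20). Dmp1, a phosphoprotein of osteocytes, had 36.1, 47.2 and 39.98 RPKM at day 15 and 1.15, 1.68 and 1.93 RPKM at day 0. Its level was not steady over the course: 1.59 ± 0.397 RPKM at day 0, 178 ± 10.0 at day 7 and 41.1 ± 5.64 at day 15. Sparc (osteonectin), which binds collagen and calcium, had 1053, 860.0 and 895 RPKM at day 15 and 574, 562 and 593 RPKM at day 0 (log2 difference 0.69 ± 0.10, adjusted p = 6.43e-06), and it too was highest at day 7, with 1390.4 ± 63.2. Between VD3-treated day 15 libraries and day 0 VD3 replicate 2 alone, the Sparc difference was 0.26.

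The osteocalcin genes Bglap and Bglap2, near-identical neighbours whose reads may be split between them, were also higher. Bglap had 20.02 ± 2.54 RPKM at day 15 and 4.59 ± 1.45 at day 0, and Bglap2 had 14.5 ± 3.54 and 3.44 ± 1.23. These day 0 levels lie about at the sensory median over all GC. The genes have 56.2% and 56.3% GC, and sensory genes from 52% GC on had a lower mean of 1.07 RPKM at day 0. Both were highest at day 7, with 29.4 ± 2.65 and 23.6 ± 3.37 RPKM. Spp1 (osteopontin), an abundant acidic matrix protein, had 872, 837 and 852 RPKM at day 15, against 2032, 1816 and 2067 RPKM at day 0. Mgp, an inhibitor of calcification, had 91.3, 96.1 and 88.5 RPKM at day 15 and 436, 468 and 473 RPKM at day 0. These falls were 2.31-fold for Spp1 and 4.99-fold for Mgp, with no overlap between groups.

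Mineralization enzymes and phosphate carriers moved in both directions, with 4 higher and 4 lower of 11 (36.4% each, beside 17.5% and 53.4% of all genes). Alpl, the alkaline phosphatase that releases phosphate, had 31.4, 20.4 and 22.3 RPKM at day 15 and 4.31, 5.80 and 6.19 RPKM at day 0. Its day 0 level is close to the sensory median over all GC. Alpl has 55.7% GC, and its day 0 level lies above the 1.07 RPKM of sensory genes from 52% GC on. In day 0 VD3 replicate 2 it had 1.22 RPKM. Slc20a1 (Pit1), a sodium phosphate carrier, had 99.9 ± 6.90 RPKM at day 15 and 57.2 ± 4.26 at day 0, a log2 difference of 0.79 ± 0.09 (adjusted p = 6.02e-07). Ank, which exports the mineral inhibitor pyrophosphate, fell to 17.4 ± 0.560 RPKM at day 15, against 32.8 ± 1.57 at day 0. Phex, the endopeptidase mutated in hypophosphatemic rickets, had 6.55 ± 0.578 RPKM at day 15 and 3.46 ± 0.829 at day 0, a day 0 value within the sensory level, and 26.1 ± 3.91 RPKM at day 7.

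The transcription factors of the osteoblast did not share a direction, with 3 higher and 3 lower of 10 (30% each, beside 17.5% and 53.4% of all genes). Runx2, the master factor of the lineage, had 7.52, 5.78 and 5.53 RPKM at day 15 and 6.68, 6.18 and 4.29 RPKM at day 0. The groups overlapped and the log2 difference was 0.12 ± 0.17 (adjusted p = 0.533). It turned to -0.040 without day 0 replicate 3 and was called higher under median-ratio rescaling, quantile normalization and subtraction of an equal background. Sp7 (osterix), which acts downstream of Runx2, had 5.58 ± 0.663 RPKM at day 15 and 1.22 ± 0.0839 at day 0. That day 0 level is below the sensory median over all GC. It is near the 1.07 RPKM of sensory genes from 52% GC on, the range of Sp7 (59.7%). Bhlhe40 rose to 17.6 ± 0.384 RPKM at day 15, against 6.88 ± 0.713 at day 0. Snai2, a repressor expressed in mesenchymal progenitors, fell to 15.3 ± 1.10 RPKM at day 15, against 25.3 ± 3.95 at day 0. The third factor that rose, Atf4, is described with its targets.

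Osteocyte genes numbered 9 tested, of which 4 were higher (44.4%) and 2 lower (22.2%), beside 17.5% and 53.4% of all genes. Pdpn (podoplanin, also called E11), a membrane protein of cells turning into osteocytes, had 92.0, 66.6 and 71.5 RPKM at day 15 and 9.80, 8.31 and 10.5 RPKM at day 0. Its means climbed over the course, with 9.53 ± 1.10, 36.9 ± 2.60 and 76.7 ± 13.5 RPKM at days 0, 7 and 15, where those of Dmp1 and Phex were highest at day 7. Cd44, a hyaluronan receptor, had 20.2 ± 1.41 RPKM at day 15 and 11.4 ± 1.29 at day 0. Fbln7, a fibulin, had 4.53 ± 0.744 RPKM at day 15 and 18.6 ± 0.801 at day 0, a fall of 1.84 ± 0.10 on the log2 scale (adjusted p = 6.79e-12).

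Among small leucine-rich proteoglycans and matricellular proteins 11 were higher (50%) and 9 lower (40.9%) of 22, beside 17.5% and 53.4% of all genes. Members of the same family moved far in opposite directions. Dcn (decorin), which binds collagen fibrils, had 126, 119 and 111 RPKM at day 15 and 5.06, 4.34 and 7.01 RPKM at day 0. Lum (lumican), which also binds fibrils, had 47.5, 52.4 and 50.5 RPKM at day 15 and 2.84, 2.97 and 3.04 RPKM at day 0. The day 0 levels of both are within the sensory signal and were 2.12 and 0.124 RPKM in day 0 VD3 replicate 2, so their folds of 21.7 and 16.97 carry that uncertainty. Ogn (osteoglycin) went the other way, with 101.2, 106.5 and 105.2 RPKM at day 15 and 535, 513 and 498 RPKM at day 0. Bgn (biglycan), the closest relative of decorin, had 53.7 ± 3.39 RPKM at day 15 and 126 ± 8.82 at day 0 (log2 difference -1.21 ± 0.18, adjusted p = 1.59e-05). Omd (osteomodulin) had 16.3 ± 2.75 RPKM at day 15 and 64.3 ± 4.10 at day 0, but in VD3-treated libraries its day 15 minus day 0 difference was 0.49. The set thus holds a pair of rises of more than 10-fold beside falls of the size of Ogn.

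Of the matricellular proteins, Tnc (tenascin C) had 111, 104 and 97.4 RPKM at day 15 and 12.6, 11.7 and 12.4 RPKM at day 0, and was already at 96.5 ± 3.68 RPKM at day 7. Tnn (tenascin W), an osteoblast-associated relative, had 19.6 ± 2.13 RPKM at day 15 and 6.202 ± 1.03 at day 0. Thbs1 (thrombospondin 1) had 148, 149 and 136 RPKM at day 15 and 472, 483 and 426 RPKM at day 0, a fall of 1.67 ± 0.08 on the log2 scale (adjusted p = 3.61e-13). Fbln1 had 4.33 ± 0.469 RPKM at day 15 and 16.2 ± 2.32 at day 0. Postn and Fn1, chosen after their values were seen as the members of the list that were not called, had no difference past the threshold.

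Collagens divided by type. Of 17 tested, 6 were higher (35.3%) and 10 lower (58.8%) with a median of -0.29, beside 17.5% and 53.4% of all genes. Under median-ratio rescaling the median of the 17 was 0.04 with 5 lower. The chains of types I, III and XI rose. Col1a1 had 101.05, 98.0 and 114 RPKM at day 15 and 44.4, 43.2 and 38.8 RPKM at day 0, and Col1a2, the other chain of type I, 444 ± 18.9 and 318 ± 6.38. Col3a1 had 486, 514 and 492 RPKM at day 15 and 211, 196 and 207 RPKM at day 0. Col11a1, a minor chain of fibrils, had 22.97 ± 0.778 RPKM at day 15 and 13.9 ± 0.652 at day 0, and the short-chain collagen Col8a1 had 161 ± 8.34 and 65.5 ± 4.44. The type V chains, named after their values were seen, did not follow: Col5a2 was lower by a log2 difference of -0.25, within the scaling shift, and Col5a1 was not called. The basement membrane chains Col4a1 and Col4a2 fell together, Col4a1 to 24.2, 21.5 and 21.9 RPKM at day 15, against 73.1, 78.5 and 73.8 RPKM at day 0, and Col4a2 to 17.3 ± 0.751, against 53.3 ± 3.12. Their log2 differences were -1.69 ± 0.08 and -1.57 ± 0.07, and both kept direction and call under each alternative run. The 3 chains of type VI, which forms beaded filaments around cells, fell as well: Col6a1 had 91.0 ± 4.85 RPKM at day 15 and 226 ± 8.05 at day 0, and Col6a2 and Col6a3 had log2 differences of -0.48 and -0.47. Between VD3-treated libraries these differences were 0.049, 1.20 and 0.060, so the fall of type VI chains holds for vehicle only, and under median-ratio rescaling those of Col6a2 and Col6a3 were not called (-0.15 and -0.13). Col1a1, Col1a2 and Col3a1 were 186 ± 19.98, 731 ± 53.5 and 813 ± 95.6 RPKM at day 7, above day 15 in each case. Between VD3-treated day 15 libraries and day 0 VD3 replicate 2 alone, the log2 differences of these 3 genes were 0.51, 0.10 and 0.13.

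Enzymes that process and crosslink collagen were 6 higher (33.3%) and 8 lower (44.4%) of 18, beside 17.5% and 53.4% of all genes. Lox, the lysyl oxidase that starts crosslinks, had 324, 327 and 314 RPKM at day 15 and 814, 779.7 and 726 RPKM at day 0. Its relative Loxl2 had 11.4 ± 2.16 RPKM at day 15 and 4.95 ± 0.809 at day 0, a rise not called between VD3-treated libraries (0.26, adjusted p = 0.0952). Plod2, which hydroxylates lysines of collagen telopeptides, had 37.9 ± 2.46 RPKM at day 15 and 20.1 ± 2.66 at day 0. Pcolce, the enhancer of procollagen C-proteinase, had 27.0 ± 2.04 RPKM at day 15 and 68.9 ± 4.42 at day 0. Adamts2, the procollagen N-proteinase, had 12.1 ± 2.28 RPKM at day 15 and 34.9 ± 2.24 at day 0. Both thus fell where the chains of types I and III rose.

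Of 19 matrix proteases and their inhibitors, 11 were higher and 3 lower with a median of 0.60, beside 17.5% higher over all genes. Of the 11 whose mean was 20 RPKM or more, 8 were higher and 1 lower, where 51.6% of all genes of that level were higher. Mmp2 (gelatinase A) had 58.1, 62.3 and 68.7 RPKM at day 15 and 18.6, 19.2 and 14.6 RPKM at day 0, a log2 difference of 1.80 ± 0.14 (adjusted p = 1.36e-09). Timp3, an inhibitor bound to the matrix, had 196, 172 and 160.5 RPKM at day 15 and 24.8, 27.8 and 24.2 RPKM at day 0, and 191 ± 10.9 at day 7. The membrane-type protease Mmp16 had 17.1 ± 1.46 RPKM at day 15 and 4.68 ± 0.434 at day 0, and Mmp3 (stromelysin) 12.7 ± 2.68 and 3.20 ± 0.393. Mmp13, the collagenase of mineralizing tissue, had 62.1, 61.9 and 71.0 RPKM at day 15 and 13.6, 12.4 and 15.2 RPKM at day 0. Between VD3-treated libraries the Mmp13 difference was -0.50, so the direction holds for vehicle only. Ctsk (cathepsin K), a collagen-degrading protease best known from osteoclasts, had 122.8 ± 8.06 RPKM at day 15 and 54.3 ± 1.41 at day 0. The osteoclast markers Acp5 and Csf1r were at 0.151 and 0.148 RPKM at day 15 and at 0.467 and 0.758 RPKM at day 0.

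Secreted antagonists of Wnt and BMP signals include 2 of the 12 largest rises and 1 of the 12 largest falls. Of 15 tested, 7 were higher (46.7%) and 4 lower (26.7%) with a median of 0.42, beside 17.5% and 53.4% of all genes. Sfrp4 had 77.6, 78.7 and 72.3 RPKM at day 15 and 4.22, 3.56 and 3.35 RPKM at day 0, while its relative Sfrp1 had 9.16, 10.0 and 9.69 RPKM at day 15 and 232, 245 and 219 RPKM at day 0. Both are secreted frizzled-related proteins, decoys for Wnt ligands. Their log2 differences were 4.04 ± 0.12 and -4.46 ± 0.09 (adjusted p = 1.01e-16 and 2.77e-19), and their levels crossed over the course: at day 7 Sfrp4 stood at 65.5 ± 5.65 and Sfrp1 at 61.4 ± 5.18 RPKM. Grem1 (gremlin), which binds BMP ligands, had 48.7, 40.8 and 46.3 RPKM at day 15 and 1.44, 0.816 and 0.343 RPKM at day 0. Unlike Sfrp4 it was still low at day 7, with 8.94 ± 1.74 RPKM.

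Receptors and signals of the osteoblast were 5 higher (31.25%) and 8 lower (50%) of 16, beside 17.5% and 53.4% of all genes. Pth1r, the receptor of parathyroid hormone, had 7.17, 6.55 and 7.11 RPKM at day 15 and 1.32, 0.228 and 1.07 RPKM at day 0, where it lay under the sensory median. The fibroblast growth factor receptors parted: Fgfr1 had 42.5 ± 1.30 RPKM at day 15 and 17.4 ± 1.74 at day 0, and Fgfr2 had 7.26 ± 0.385 and 20.3 ± 1.10. Their log2 differences of 1.25 ± 0.11 and -1.36 ± 0.09 were each larger than the scaling shifts given above. Lifr, the receptor of leukemia inhibitory factor, had 67.3 ± 1.95 RPKM at day 15 and 39.6 ± 0.871 at day 0. The growth hormone receptor Ghr had 31.0 ± 0.649 RPKM at day 15 and 52.2 ± 1.63 at day 0. The ligand Bmp2 had 11.9 ± 0.969 RPKM at day 15 and 2.43 ± 0.146 at day 0.

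Of the cytokines by which osteoblasts steer osteoclasts, Csf1, which sustains osteoclast precursors, fell to 30.1, 29.2 and 28.8 RPKM at day 15, against 58.4, 64.8 and 56.4 RPKM at day 0. Tnfrsf11b (osteoprotegerin), the decoy of Rankl, rose to 25.3, 25.7 and 25.7 RPKM at day 15, against 9.21, 12.5 and 13.8 RPKM at day 0. Tnfsf11 (Rankl) itself had 0.760 ± 0.229 RPKM at day 15 and 1.84 ± 0.274 at day 0, and Vdr, the vitamin D receptor, 0.863 ± 0.0445 and 2.46 ± 0.0407. Both were called lower, yet their day 0 levels lie under the sensory median over all GC. Vdr has 54.8% GC, and its day 0 level lies above the 1.07 RPKM of sensory genes from 52% GC on. In day 0 VD3 replicate 2 it had 3.84 RPKM. The differences of both genes turned positive under quantile normalization (0.49 and 0.35). No direction that holds under every scaling can be given for them.

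**Figure D3:**
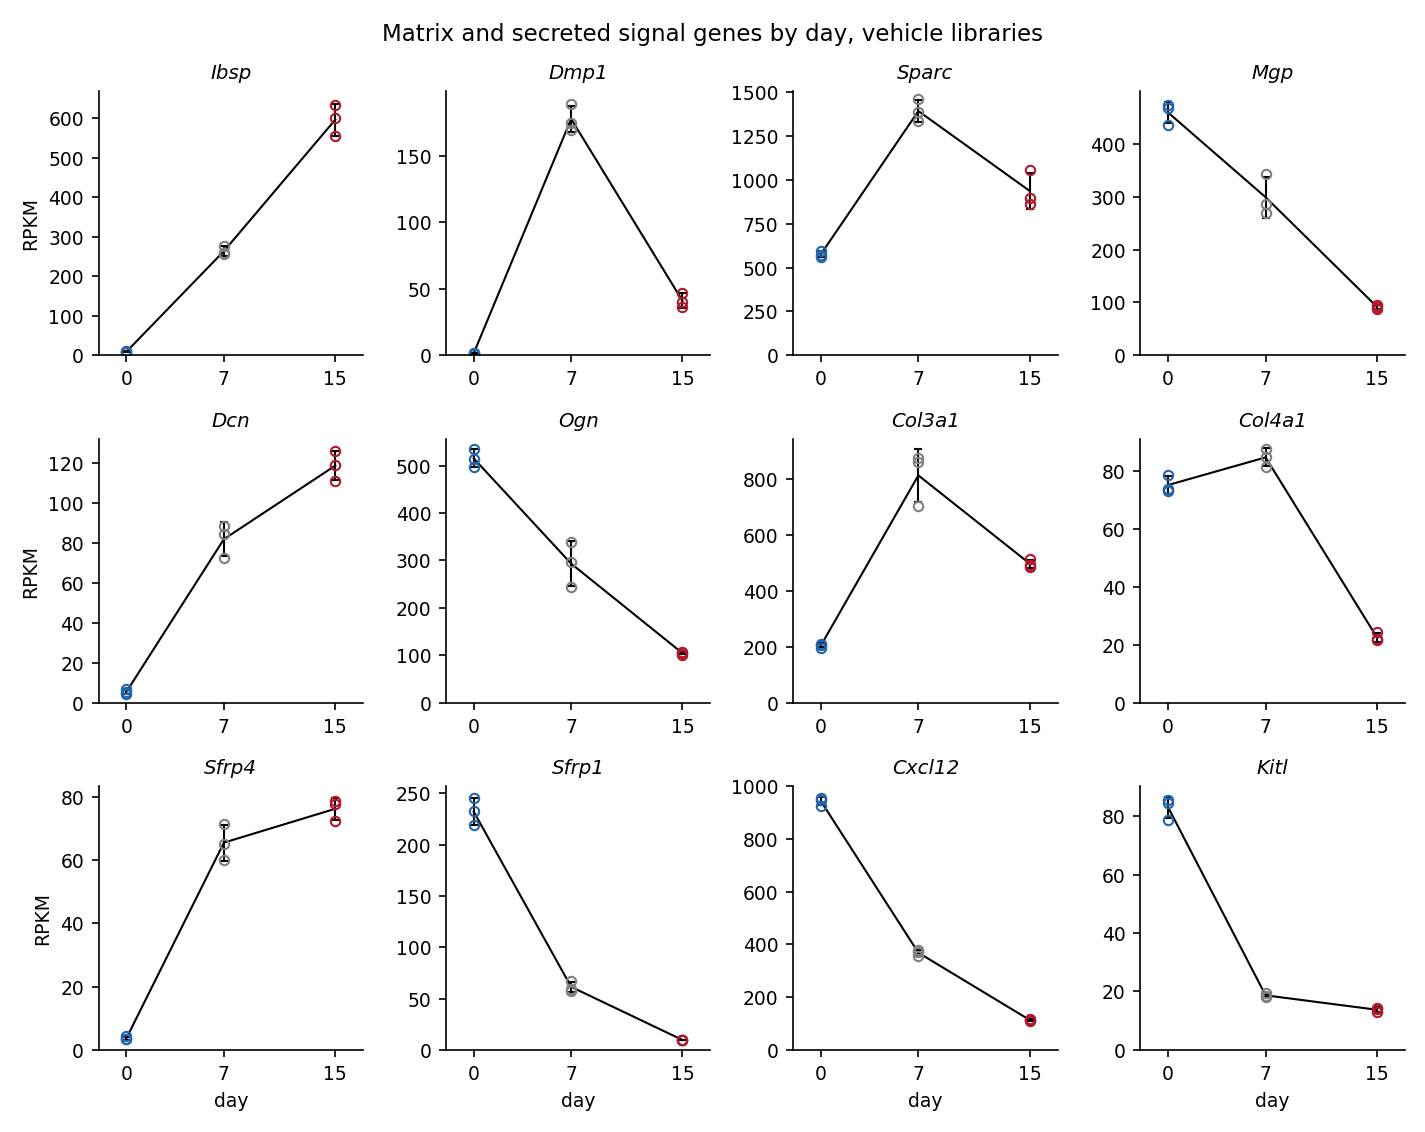
RPKM in vehicle libraries of 12 matrix and secreted signal genes at days 0, 7 and 15 (horizontal axis, to scale), with open circles for libraries and a line through the means with SD bars. Dmp1, Sparc and Col3a1 peak at day 7, Ibsp and Dcn climb to day 15, and Sfrp1, Cxcl12, Kitl and Ogn decline from day 0 on.

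Most tested genes of the integrated stress response, of amino acid synthesis and of tRNA charging were higher at day 15. This response runs through Atf4, a factor made when translation initiation is damped by amino acid shortage or by unfolded protein, which with C/EBP partners binds C/EBP-ATF composite sites. Of 18 factors and targets tested, 13 were higher (72.2%, beside 17.5% of all genes) and 1 lower with a median of 1.31. Of 16 enzymes of amino acid synthesis and folate-linked carbon transfer, 10 were higher (62.5%) and 0 lower (median 0.93). Of 20 cytoplasmic aminoacyl-tRNA synthetases, which load tRNA with amino acids, 18 (90%) were higher and 0 lower (median 1.27), beside 17.5% of all genes. The log2 differences of these 18 were 0.51 to 2.16. The summed level of the 20 was 1641 to 1683 RPKM at day 15 and 597.5 to 617.8 RPKM at day 0. Of members whose mean was 20 RPKM or more, 4 of 6 stress response genes, 6 of 7 enzymes and 13 of 13 synthetases were higher. At that level 51.6% of all genes were higher. Over every alternative run, 17 to 20 synthetases were higher and 0 lower.

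Promoters of these genes are shown because the letters TGATGNAA, a core of the C/EBP-ATF composite site, recur in them. Sequences are RefSeq entries on GRCm38.p6, a later build than the mm9 of the deposited values, and each is a stretch of 60 bases on the gene's own strand, upstream of its start site, with the match in capitals on either strand. Chac1 is at chr2:119351023-119351082 (+ strand), Atf3 at chr1:191183410-191183469 (- strand), Nupr1 at chr7:126625547-126625606 (- strand), Herpud1 at chr8:94386291-94386350 (+ strand), Asns at chr6:7693210-7693269 (- strand), Aars at chr8:111033704-111033763 (+ strand) and Tars at chr15:11399659-11399718 (- strand).
Chac1: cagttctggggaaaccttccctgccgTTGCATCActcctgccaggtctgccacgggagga
Atf3: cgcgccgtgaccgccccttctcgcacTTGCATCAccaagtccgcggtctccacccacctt
Nupr1: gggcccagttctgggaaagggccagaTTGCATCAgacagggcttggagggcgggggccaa
Herpud1: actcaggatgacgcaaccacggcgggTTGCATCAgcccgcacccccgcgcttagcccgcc
Asns: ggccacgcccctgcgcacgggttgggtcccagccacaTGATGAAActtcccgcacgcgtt
Aars: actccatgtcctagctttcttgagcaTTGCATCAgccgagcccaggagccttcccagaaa
Tars: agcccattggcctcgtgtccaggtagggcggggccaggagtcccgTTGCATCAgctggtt

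Both strands of the windows from 250 bases before to 50 after each start were searched. The letters stood in 1304 of 32851 windows (3.97%) and in windows of 1219 of 27025 genes (4.51%). They stood in those of 5 of 13 synthetases with an entry (38.5%), of 7 of 17 stress response genes (41.2%), of 3 of 15 amino acid enzymes (20%) and of 2 of 9 amino acid transporters (22.2%). Of the 7 stress response genes with them, 6 were higher at day 15 and Fgf21 was not called. Without the letters were 10 stress response genes, of which 6 were higher and 1 lower. All 5 synthetases with the letters were higher, and 6 of the 8 without them. A match is a description of the window and not a bound site.

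Atf4 had 333, 282 and 290.2 RPKM at day 15 and 70.6, 68.2 and 73.3 RPKM at day 0, and 183 ± 9.33 at day 7. Its difference of 2.07 ± 0.08 on the log2 scale (adjusted p = 1.77e-14) was as plain against day 0 VD3 replicate 2, which had 72.7 RPKM. Ddit3 (Chop), a factor of prolonged stress, had 162, 119 and 88.2 RPKM at day 15 and 16.4, 14.2 and 22.7 RPKM at day 0. Trib3, a pseudokinase that binds Atf4, had 20.9, 29.8 and 29.0 RPKM at day 15 and 1.44, 1.15 and 1.57 RPKM at day 0. Their day 7 levels, which were not tested, lay apart. At day 7 Ddit3 and Trib3 stood at 20.5 ± 2.39 and 1.68 ± 0.516 RPKM, close to their day 0 means of 17.8 ± 4.44 and 1.39 ± 0.214, while Atf4 was already more than 2-fold above day 0.

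Nupr1, a small stress-induced chromatin protein, had 133, 131 and 134 RPKM at day 15 and 29.9, 19.4 and 27.9 RPKM at day 0. Atf5, a relative of Atf4, had 23.6 ± 1.58 RPKM at day 15 and 4.05 ± 0.781 at day 0. Genes named for the letters in their promoters rose as well: Herpud1, which acts in degradation of unfolded protein, had 58.3 ± 3.43 RPKM at day 15 and 17.4 ± 2.42 at day 0. Chac1, which breaks down glutathione, had 8.24 ± 1.21 and 1.76 ± 0.642 RPKM and Atf3 10.95 ± 2.19 and 2.75 ± 1.06 RPKM, both with day 0 levels under the sensory median. The member that fell was Cebpg, a partner of Atf4, with 19.9 ± 1.15 RPKM at day 15 and 22.7 ± 1.03 at day 0, a difference of -0.18 ± 0.08 (adjusted p = 0.0446). The call was lost without 5 of the 6 libraries in turn (-0.15 to -0.20), and the sign turned under median-ratio rescaling. Cebpb, another partner, had 33.8, 30.6 and 36.3 RPKM at day 15 and 23.9, 41.0 and 12.2 RPKM at day 0, was not called (adjusted p = 0.0707), and was called higher without day 0 replicate 2 (0.93).

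Among the enzymes, Asns (asparagine synthetase) had 104, 92.0 and 82.9 RPKM at day 15 and 24.3, 25.4 and 26.9 RPKM at day 0. Mthfd2 and Aldh1l2, mitochondrial enzymes of folate metabolism, had 51.1 ± 0.978 and 38.5 ± 0.870 RPKM at day 15 and 8.97 ± 0.744 and 6.62 ± 0.387 RPKM at day 0. Their log2 differences, 2.39 ± 0.11 and 2.37 ± 0.13, were the largest of the enzyme list and near to each other. Shmt2, the mitochondrial serine hydroxymethyltransferase, had 25.9 ± 5.74 RPKM at day 15 and 8.32 ± 0.985 at day 0. Got1, the cytosolic aspartate aminotransferase, which also holds the letters, had 17.8 ± 0.868 RPKM at day 15 and 9.98 ± 1.28 at day 0. Of 12 amino acid transporters 6 were higher (50%) and 3 lower (25%), beside 17.5% and 53.4% of all genes. Slc3a2, the heavy chain shared by several amino acid exchangers, had 42.9, 40.8 and 39.7 RPKM at day 15 and 11.01, 13.9 and 16.02 RPKM at day 0.

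The synthetases rose by unequal amounts. Sars (serine) was the most abundant of those named, with 430.5, 426 and 443 RPKM at day 15 and 113, 111 and 106 RPKM at day 0. Aars (alanine) had 119.8, 132 and 131 RPKM at day 15 and 26.01, 30.8 and 26.6 RPKM at day 0, the largest log2 difference of the list at 2.16 ± 0.11 (adjusted p = 4.24e-13). Nars (asparagine) had 161, 172 and 157 RPKM at day 15 and 44.9, 47.7 and 43.96 RPKM at day 0. The 3 genes stood at 170.3 ± 34.3, 53.0 ± 8.61 and 83.4 ± 7.81 RPKM at day 7, between day 0 and day 15. Yars (tyrosine) and Cars (cysteine) had 26.3 ± 2.50 and 16.6 ± 1.68 RPKM at day 15 and 8.14 ± 1.20 and 5.02 ± 0.582 RPKM at day 0. Tars (threonine) and Gars (glycine), which hold the letters, had 98.1 ± 10.5 and 144 ± 6.23 RPKM at day 15 and 35.9 ± 1.84 and 53.5 ± 2.39 RPKM at day 0. Farsb and Qars, named after their values were seen, were the members not called.

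**Figure D4:**
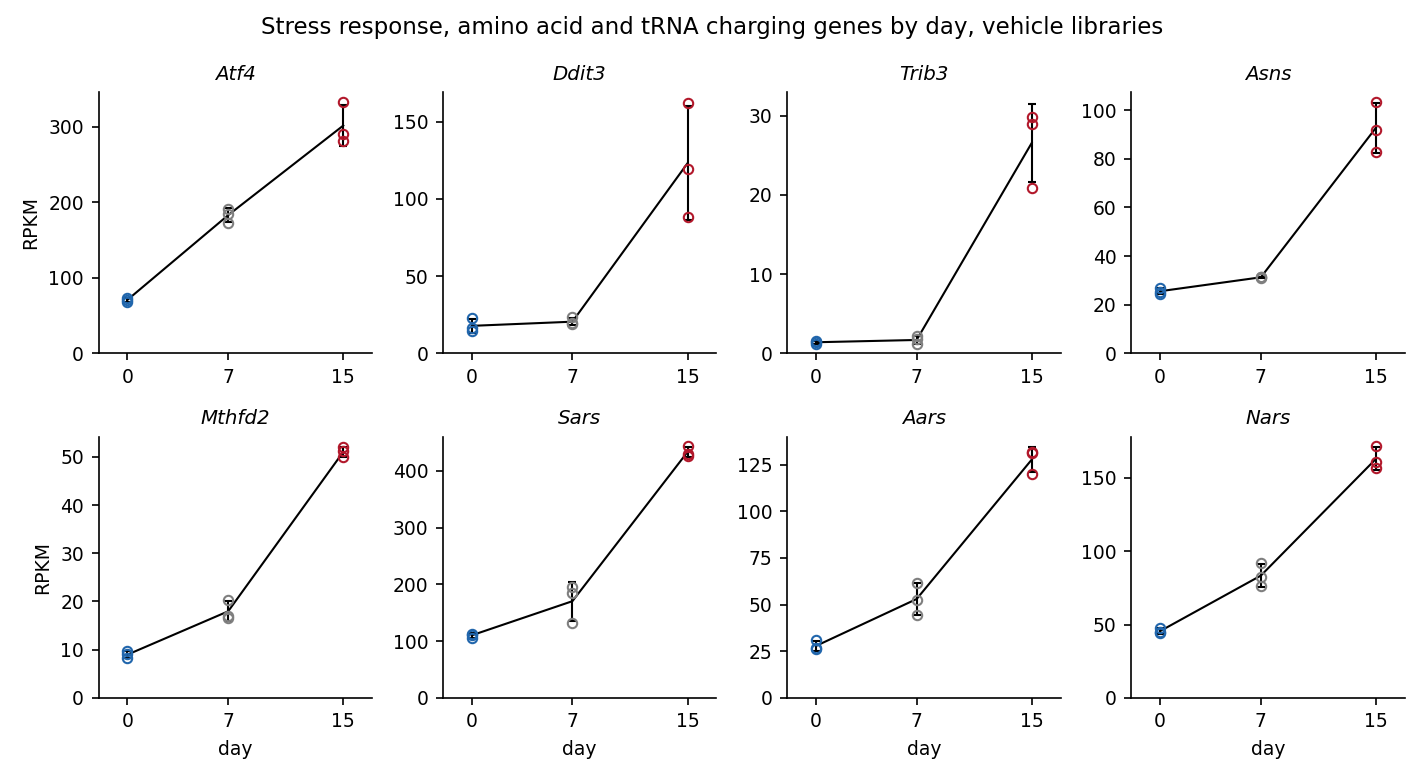
RPKM in vehicle libraries of 8 genes of the stress response, amino acid synthesis and tRNA charging at days 0, 7 and 15 (horizontal axis, to scale), with open circles for libraries and a line through the means with SD bars. Ddit3, Trib3 and Asns stay near their day 0 level at day 7, while Atf4, Sars, Aars and Nars are already between their day 0 and day 15 levels.

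Of 17 chaperones of the endoplasmic reticulum, 9 were higher (52.9%), 1 lower (5.9%) and 7 not called (median 0.25), beside 17.5% higher and 53.4% lower of all genes. Hspa5 (BiP), the main chaperone there, had 1236, 1288 and 987 RPKM at day 15 and 465, 458 and 476 RPKM at day 0. Its co-chaperones Dnajb9 and Dnajb11 had 31.2 ± 3.82 and 36.4 ± 3.41 RPKM at day 15 and 13.8 ± 0.0772 and 16.9 ± 1.00 RPKM at day 0. Pdia6, a protein disulfide isomerase, was the member that fell, to 67.3 ± 8.92 RPKM at day 15, against 100.7 ± 4.37 at day 0, a call lost under median-ratio rescaling (-0.24, adjusted p = 0.166). Of the 13 members whose mean was 20 RPKM or more, 6 were higher and 1 lower, where 51.6% and 17.6% of all genes of that level were. Their median was 0.19, where all genes of that level had 0.28, so the list as a whole did not stand out there.

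Genes of oxidative phosphorylation and the citrate cycle were 14 higher (60.9%) and 1 lower (4.3%) of 23, beside 17.5% and 53.4% of all genes, with a median of 0.40. Of the 18 whose mean was 20 RPKM or more, 10 were higher with a median of 0.39, near the 51.6% and 0.28 of all genes of that level. Ndufv1, a subunit of respiratory complex I, had 87.3, 78.0 and 92.4 RPKM at day 15 and 44.3, 45.6 and 47.4 RPKM at day 0. Sdhb of complex II had 35.9 ± 1.80 RPKM at day 15 and 20.6 ± 0.987 at day 0, and Atp5b, the catalytic β subunit of ATP synthase, 432 ± 12.3 and 296 ± 7.95. Idh2, the mitochondrial isocitrate dehydrogenase, fell to 25.3 ± 5.12 RPKM at day 15, against 46.8 ± 5.55 at day 0. Between VD3-treated day 15 libraries and day 0 VD3 replicate 2 alone, the median of the list was 0.12, with Sdhb at 0.26 and Atp5b at 0.36. Glycolytic and hypoxia-responsive genes had no common direction, with 6 higher (30%) and 8 lower (40%) of 20, beside 17.5% and 53.4% of all genes. Under median-ratio rescaling 10 were higher and 2 lower. Hk2, the hexokinase of proliferating and insulin-responsive cells, had 31.3, 29.8 and 30.4 RPKM at day 15 and 12.2, 12.9 and 11.3 RPKM at day 0. Txnip, an inhibitor of glucose uptake that is induced by glucose, had 1.40, 1.49 and 0.654 RPKM at day 15 and 51.3, 61.1 and 55.0 RPKM at day 0, with 68.1 RPKM in day 0 VD3 replicate 2. Of 15 immediate early genes, which respond quickly to stimulation, 8 were higher (53.3%) and 3 lower (20%), beside 17.5% and 53.4% of all genes. Their median was 0.35. Of the 2 whose mean was 20 RPKM or more 1 was higher, where 51.6% of all genes of that level were. Of 11 abundant noncoding RNAs, 1 was higher (9.1%) and 4 lower (36.4%), and of 4 skeletal muscle and neural markers 1 was higher (25%) and 2 lower (50%). The shares over all genes were 17.5% and 53.4%.

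Interferon-responsive genes were lower with 1 exception. Of 24 tested, 0 were higher and 23 lower with a median of -1.64, where 53.4% of all genes were lower. Their summed level was 149 to 190 RPKM at day 15 and 697.5 to 928.5 RPKM at day 0. Over every alternative run, 16 to 24 were lower and 0 higher. The promoters of 4 genes of this kind are printed from the same table and on the gene's strand. In each, 1 match of the letters GAAANNGAAA, the core of the interferon-stimulated response element, is in capitals. The Isg15 and Bst2 stretches each hold a further match that overlaps it. Isg15 holds another that overlaps only this further match. All of these are left in small letters. Isg15 is at chr4:156200863-156200922 (- strand), Ifit3 at chr19:34583381-34583440 (+ strand), Bst2 at chr8:71537569-71537628 (- strand) and B2m at chr2:122147522-122147581 (+ strand).
Isg15: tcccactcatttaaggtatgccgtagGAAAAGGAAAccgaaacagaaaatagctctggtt
Ifit3: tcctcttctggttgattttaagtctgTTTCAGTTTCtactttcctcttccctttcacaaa
Bst2: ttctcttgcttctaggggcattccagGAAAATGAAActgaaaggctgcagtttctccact
B2m: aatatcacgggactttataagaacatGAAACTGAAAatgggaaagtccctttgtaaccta

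On either strand these letters stood in 1131 of 32851 windows (3.44%) and for 1079 of 27025 genes (3.99%). They stood in the windows of 11 of the 17 interferon-responsive genes with an entry (64.7%), all 11 of which were lower. Of the 6 without them, 5 were lower and Ifit2 was not called. Among genes of MHC class I presentation 4 of 14 held them (28.6%). The 2 motifs searched overlapped in 8 of the 32851 windows.

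Isg15, a ubiquitin-like protein induced by interferon, had 5.56, 7.08 and 3.86 RPKM at day 15 and 32.9, 42.2 and 38.6 RPKM at day 0. Ifit3, an antiviral RNA-binding partner, had 34.5, 43.1 and 30.7 RPKM at day 15 and 185, 310.1 and 230.0 RPKM at day 0. Rtp4, an interferon-induced chaperone, had 2.85, 3.55 and 2.21 RPKM at day 15 and 27.6, 33.2 and 33.6 RPKM at day 0. In day 0 VD3 replicate 2 these genes stood at 32.8, 362 and 32.5 RPKM, as high as in the vehicle day 0 libraries although its sensory median was low. Ifi44 had 1.84 ± 0.937 RPKM at day 15 and 29.4 ± 4.46 at day 0. Ifi27l2a had 0, 1.49 and 0.195 RPKM at day 15 and 53.2, 34.9 and 50.3 RPKM at day 0. Bst2 (tetherin), named for its promoter, had 16.1 ± 2.99 RPKM at day 15 and 94.5 ± 14.9 at day 0. The exception, named after its value was seen, was Ifit2, with 29.7, 26.6 and 24.6 RPKM at day 15 and 26.4, 30.6 and 31.3 RPKM at day 0. Its groups overlapped, and its sign depended on scaling.

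Antigen presentation genes of MHC class I, which interferon also induces, were 0 higher and 12 lower of 14 with a median of -0.84, where 53.4% of all genes were lower with a median of -0.55. Under median-ratio rescaling 8 were lower. B2m, the invariant light chain, had 94.3, 91.1 and 78.1 RPKM at day 15 and 261, 228 and 260.1 RPKM at day 0. H2-D1, a classical heavy chain, had 34.6 ± 1.67 RPKM at day 15 and 79.4 ± 6.76 at day 0, and H2-T23, the mouse Qa-1 chain, 15.8 ± 2.81 and 58.2 ± 3.85. Heavy chain genes resemble each other closely, and the authors' counting may divide reads among them. Each of the 3 genes had at day 7 a mean between day 0 and day 15: 154 ± 8.34, 49.3 ± 6.70 and 27.7 ± 4.67 RPKM.

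Of 18 chemokine and cytokine genes 3 were higher and 12 lower (66.7%, beside 53.4% of all genes), and 5 were higher and 6 lower between VD3-treated libraries. Cxcl12, the chemokine that holds blood stem cells in the marrow, had 112, 118 and 109.7 RPKM at day 15 and 946, 926 and 957 RPKM at day 0. Kitl (stem cell factor), its partner in that niche, had 12.9, 13.8 and 14.4 RPKM at day 15 and 85.8, 84.5 and 78.9 RPKM at day 0. Their log2 differences were -3.05 ± 0.11 and -2.51 ± 0.08 (adjusted p = 3.54e-15 and 1.07e-16), with means of 369 ± 11.5 and 18.7 ± 0.615 RPKM at day 7. Vcam1, an adhesion molecule of marrow stroma, had 27.2 ± 6.90 RPKM at day 15 and 80.7 ± 4.70 at day 0. Ly6a (Sca-1), a progenitor marker and also interferon-inducible, had 11.4 ± 3.60 RPKM at day 15 and 47.2 ± 13.96 at day 0, a fall not called between VD3-treated libraries (-0.51). Il33, the alarmin cytokine, had 244, 214 and 199.6 RPKM at day 15 and 1.48, 1.29 and 1.21 RPKM at day 0. Il1rn, the antagonist of the interleukin-1 receptor, had 2.23, 1.01 and 1.19 RPKM at day 15 and 98.1, 103 and 114 RPKM at day 0, but 20.6 RPKM in day 0 VD3 replicate 2.

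Of 21 adipocyte genes 0 were higher and 17 lower with a median of -1.22, where 53.4% of all genes were lower with a median of -0.55. The count depended on scaling and background: quantile normalization gave 3 higher and 8 lower (median -0.10), and subtraction of an equal background 1 higher and 8 lower of 19. The list's summed level was 99.8 to 107.5 RPKM at day 15 and 591.5 to 630.0 RPKM at day 0. Between VD3-treated day 15 libraries and day 0 VD3 replicate 2 alone, the median of the list was -0.16. Lpl (lipoprotein lipase) had 26.2, 28.8 and 24.8 RPKM at day 15 and 231, 239 and 236 RPKM at day 0. Cebpa and Pparg, the factors that set the adipocyte programme, had 6.54 ± 0.492 and 7.74 ± 1.25 RPKM at day 15 and 72.4 ± 11.7 and 32.0 ± 2.74 RPKM at day 0. Plin4, a lipid droplet coat protein, had 6.23 ± 0.672 RPKM at day 15 and 69.3 ± 3.11 at day 0, and Fabp4, the adipocyte fatty acid binding protein, 5.79 ± 0.781 and 51.0 ± 10.4. The hormone Adipoq had 0.895 ± 0.205 RPKM at day 15 and 26.4 ± 1.29 at day 0. Agt (angiotensinogen) had 0.704 ± 0.243 and 23.4 ± 0.911 RPKM.

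Of 16 genes of fatty acid and triglyceride synthesis 3 were higher and 9 lower (56.25%). Of 17 of cholesterol synthesis and uptake 2 were higher and 8 lower (47.1%). Both shares lie near the 53.4% lower of all genes. Scd1, the desaturase that makes oleate, had 41.98 ± 1.95 RPKM at day 15 and 136 ± 11.7 at day 0. Insig1, which holds back sterol-regulated transcription, had 66.7, 55.5 and 67.8 RPKM at day 15 and 197, 208 and 192 RPKM at day 0. Gpam, the mitochondrial acyltransferase that opens triglyceride synthesis, went up to 36.7 ± 1.89 RPKM at day 15, against 11.1 ± 1.31 at day 0. Under median-ratio rescaling 5 cholesterol genes were higher and 4 lower, so the list as a whole has no direction that holds under both scalings.

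Cell cycle genes were 3 higher (10.7%) and 11 lower (39.3%) of 28, with a median of -0.17, beside 17.5% and 53.4% of all genes. Under median-ratio rescaling 8 were higher and 4 lower, and between VD3-treated libraries 12 and 2, so no direction is given for the group. Rrm2, a subunit of ribonucleotide reductase, had 11.5 ± 1.35 RPKM at day 15 and 27.6 ± 4.21 at day 0. Mki67, the proliferation marker Ki-67, had 9.29 ± 0.781 RPKM at day 15 and 18.1 ± 1.32 at day 0, and 8.39 RPKM in day 0 VD3 replicate 2. The helicase subunits Mcm6 and Mcm7 went opposite ways, Mcm6 with 18.4 ± 0.587 RPKM at day 15 and 29.9 ± 1.71 at day 0, and Mcm7 with 27.7 ± 1.18 and 19.8 ± 1.59. The inhibitors of cyclin-dependent kinases Cdkn1a and Cdkn2b rose, Cdkn1a to 22.1 ± 4.88 RPKM at day 15, against 8.38 ± 2.41 at day 0, and Cdkn2b to 91.9 ± 2.59, against 49.3 ± 4.57.

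The label of mesenchymal cells was checked against markers of other cells. Smooth muscle and pericyte genes, which cultured stromal cells also express, were 5 higher (38.5%) and 3 lower (23.1%) of 13, beside 17.5% and 53.4% of all genes. Among them Tagln had 112 ± 11.2 RPKM at day 15 and 51.9 ± 5.09 at day 0, and Tpm1 1233 ± 58.8 and 634 ± 8.75. Taking only the most abundant transcript of each gene, the Tpm1 rise was not called (adjusted p = 0.292). Of the stromal and progenitor markers 5 were higher (38.5%) and 6 lower (46.2%) of 13. Pdgfra, a general stromal marker chosen after its value was seen, was not called, with 73.7 RPKM at day 15 and 70.4 at day 0.

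Defining markers of blood, vessel and cartilage cells did not stand above the sensory signal of their libraries. The leukocyte marker Ptprc had 0.291 RPKM at day 15 and 2.30 at day 0, the endothelial Pecam1 0.111 and 0.619, and the cartilage collagen Col2a1 0.193 and 1.35. Other members of these lists did, with Ctsk at 122.8, Kdr at 12.4 and Sox9 at 4.35 RPKM at day 15. Of the lymphoid and mast cell markers 0 were higher and 4 lower of 4 tested, and the 14 genes summed to 2.15 to 2.79 RPKM at day 15 and 17.4 to 18.5 RPKM at day 0. Of the monocyte, macrophage and osteoclast markers 1, Ctsk, was higher (12.5%) and 6 lower (75%) of 8, beside 17.5% and 53.4% of all genes. Of the erythroid and endothelial markers 1 was higher (11.1%) and 7 lower (77.8%) of 9. Their sums were 12.5 to 15.5 RPKM at day 15 and 13.5 to 16.1 RPKM at day 0. Of the chondrocyte markers 1 was higher (16.7%) and 4 lower (66.7%) of 6. Their sums were 8.23 to 9.21 RPKM at day 15 and 13.6 to 15.8 RPKM at day 0. Kdr, a receptor of vascular endothelial growth factor, was the vessel gene that rose, with 10.1, 13.5 and 13.8 RPKM at day 15 and 1.69, 1.53 and 2.57 RPKM at day 0, where it lay under the sensory median.

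Of the remaining largest changes, F13a1 (the A subunit of coagulation factor XIII, a transglutaminase) had 50.4, 51.9 and 53.4 RPKM at day 15 and 1.62, 1.92 and 2.72 RPKM at day 0. Glipr1 had 54.9 ± 3.56 RPKM at day 15 and 5.71 ± 1.07 at day 0. Among the falls, Gzme (granzyme E) had 1.56, 1.59 and 1.27 RPKM at day 15 and 172, 158 and 153 RPKM at day 0. Mcpt8, a protease best known from basophils, had 0.0750, 1.65 and 1.67 RPKM at day 15 and 50.2, 59.6 and 65.2 RPKM at day 0. These proteases of blood cells stood at 314 and 179 RPKM in day 0 VD3 replicate 2, the library with little sensory signal. Npr3, the clearance receptor of natriuretic peptides, had 8.61, 11.8 and 11.3 RPKM at day 15 and 176, 181 and 155 RPKM at day 0. The renal dipeptidase gene Dpep1 had 1.44 ± 0.202 RPKM at day 15 and 42.8 ± 2.51 at day 0, and Itih2, a heavy chain that attaches to hyaluronan, 3.87 ± 0.957 and 75.5 ± 0.890.

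Another 3 of the 12 largest falls moved with the sensory signal. Srsx had 7.24 ± 2.95 RPKM at day 15 and 133 ± 36.3 at day 0, Speer4d 5.90 ± 2.34 and 77.3 ± 15.4, and Speer8-ps1 7.51 ± 2.19 and 94.5 ± 11.9. In day 0 VD3 replicate 2 they stood at 18.1, 6.74 and 12.9 RPKM, near their day 15 levels. The part of the sensory signal in these 3 falls was not tested.

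**Figure D5:**
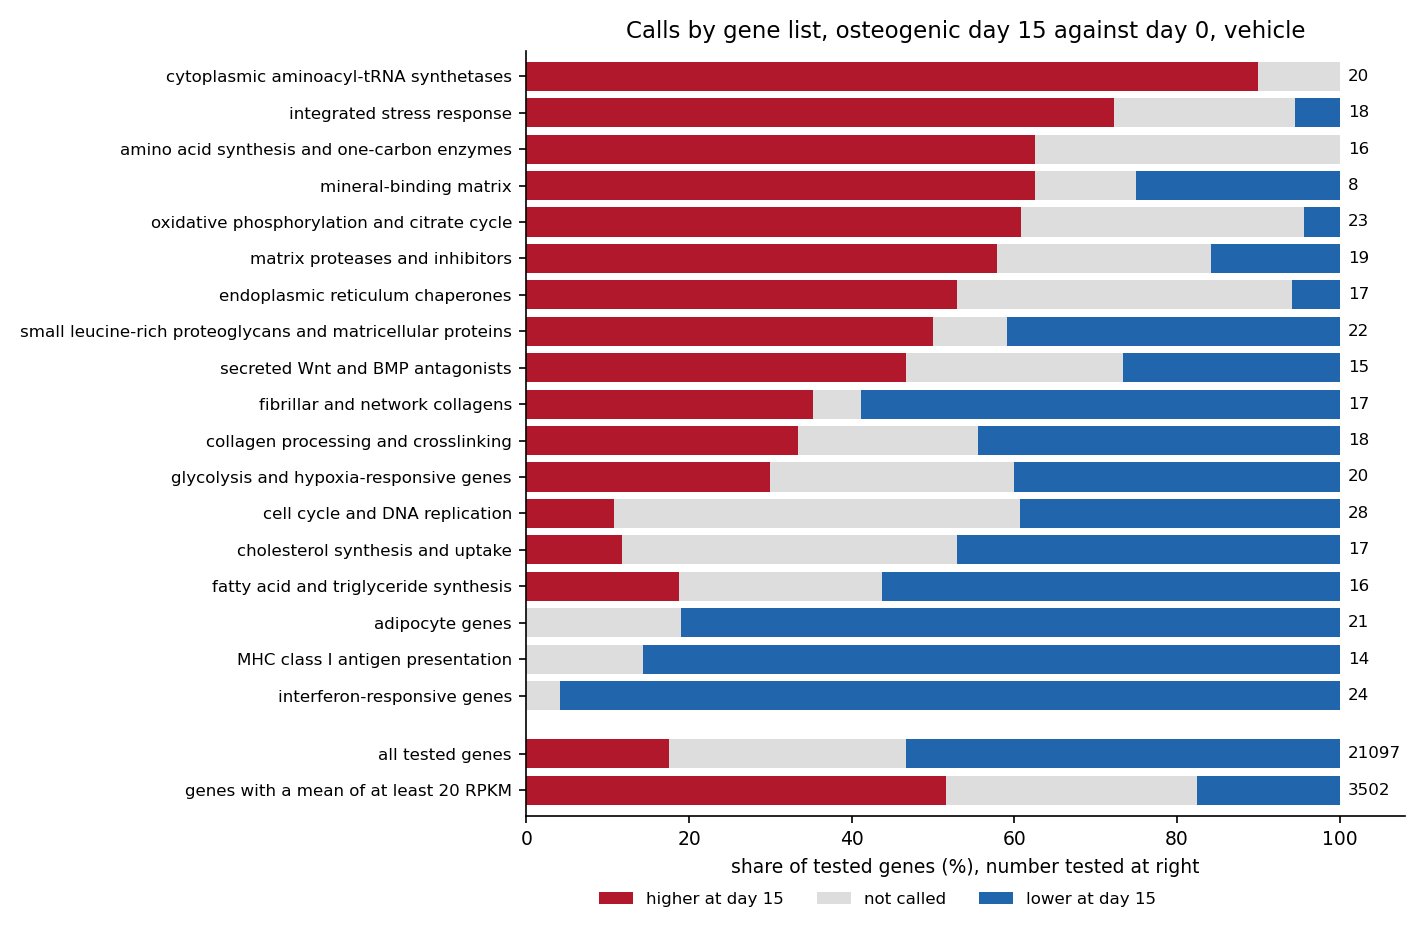
Share in percent of the tested genes of each list that were higher (red), not called (grey) or lower (blue) at day 15, with the number tested at the right, above the same shares for all tested genes and for those whose mean was 20 RPKM or more. The tRNA synthetase bar is red for 90% of its genes and the interferon bar blue for 95.8%, beside 17.5% and 53.4% over all tested genes.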

How the data were processed

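The 24 libraries are directional, ribosome-depleted RNA-seq libraries, per the labels' protocols. Reads were aligned with TopHat to mm9, per the submitters' processing notes, without a version. The quantification tool, annotation and filters are not given in the sources used here. The deposited values are RPKM per transcript, computed by the authors, with 30795 transcripts per library, which were summed by symbol. After 40 transcripts whose symbols had turned into dates were left out, 25385 genes stayed. No read counts were used. Depth was estimated from the step between whole-read multiples among 150 low values per library of olfactory receptor genes (89.3 to 97.3% within 0.1 of a whole read in the 6 libraries). By it 3 reads on a 1 kilobase transcript equal 0.0678 to 0.0941 RPKM at day 15 and 0.309 to 0.421 RPKM at day 0, a limit from counting error only.

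The 21097 genes that reached 1 RPKM in 3 or more of the 24 libraries were tested with limma 3.58.1 (R 4.3.3) on log2(RPKM + 1), with 8 groups over 24 libraries, trended and robust empirical Bayes and Benjamini-Hochberg adjustment over all of them. The fit was tested on simulated data. Alternatives were 2 scalings, a smaller pseudocount (0.1), a filter at 5 RPKM or none, a replicate term, the 6 libraries alone, plain empirical Bayes, VD3-treated libraries, the largest transcript, background subtraction (equal, or matched on GC) and leaving out each library. GC content and promoters came from annotation of GRCm38, a later build than mm9, by symbol (GC for 90.9% of genes). Preparation used Python 3.11.15, numpy 2.4.6, pandas 2.3.3 and matplotlib 3.10.9.

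Named genes are the 12 largest rises and 12 largest falls whose mean was 20 RPKM or more without overlap, up to 5 called members of each list and direction that had 10 RPKM or more in the higher group (not all of which are printed), 22 genes of osteoblasts, stress response and adipocytes in any case, and genes chosen for motif letters in their promoters. The members and the 33 gene lists were chosen with earlier results of these data known.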

Additional observations from a re-analysis of the deposited data

Results flagged for a closer look

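For 31 of the 142 named genes the day 15 minus day 0 difference itself differed between VD3-treated and vehicle libraries, by a test of that difference in limma (adjusted p under 0.05), as it did for 600 of 21097 genes. Values are the log2 difference in VD3-treated libraries minus that in vehicle libraries. A positive value means that day 15 stood higher relative to day 0 among VD3-treated libraries than among vehicle libraries. The day 15 level itself can still be lower with VD3, as for Ibsp, with 238 RPKM beside 596 RPKM in vehicle. The value was positive for Omd (2.42), Il1rn (1.84), Col6a2 (1.69), Col6a1 (1.35), Alpl (1.05), Tagln (1.01), Cxcl12 (0.95), Agt (0.90), Insig1 (0.90), Lox (0.86), Tnc (0.84), Rrm2 (0.83), Ogn (0.82), Kitl (0.81), Sfrp1 (0.77), Adipoq (0.76), Ibsp (0.70), Tpm1 (0.56), Scd1 (0.53), Col6a3 (0.53) and Slc20a1 (0.49). It was negative for Mmp13 (-2.66), Fbln7 (-1.14), Sfrp4 (-1.07), Col3a1 (-1.001), Loxl2 (-0.80), Col8a1 (-0.69), Thbs1 (-0.62), Mmp16 (-0.53), Timp3 (-0.52) and Lpl (-0.47). The VD3-treated day 0 group holds replicate 2, the day 0 library whose sensory median was low (0.456 RPKM, beside 4.45 and 3.38 in replicates 1 and 3), and the part of that library in these values was not tested.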

How the results depend on the processing

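Of the 142 named genes, 109 kept direction and side of the threshold under every alternative and 33 did not in at least 1. Over all genes, higher and lower calls were 5609 and 9429 under median-ratio rescaling, 6128 and 4334 under quantile normalization, 8532 and 1779 after equal background subtraction, 6387 and 2390 after GC-matched subtraction, 3568 and 6895 between VD3-treated libraries, 2304 and 1275 with day 0 represented by VD3 replicate 2 alone (assumed to vary like the other groups), and 3474 and 3369 with a filter at 5 RPKM, which tests fewer genes. Leaving out each library gave 3332 to 3470 higher and 10581 to 10924 lower. Among genes whose mean was 20 RPKM or more, lower calls were 317 under median-ratio rescaling and higher and lower calls 978 and 406 with day 0 VD3 replicate 2 alone. Leaving out each library gave 1680 to 1723 higher and 561 to 595 lower there. Median-ratio rescaling and quantile normalization shifted the median of all genes by 0.25 and 0.61. Signs turned for Runx2 (-0.17 with the largest transcript, and -0.040 to 0.23 over left-out libraries), Omd (0.49 between VD3-treated libraries, 0.56 with day 0 VD3 replicate 2 alone), Mmp13 (-0.50 and -0.53 for the same), Col6a1 and Col6a3 (0.049 and 0.060 between VD3-treated libraries), Col6a2 (1.20, and 1.25 with day 0 VD3 replicate 2 alone), Col5a1 (0.17 with day 0 VD3 replicate 2 alone, 0.087 equal subtraction), Col5a2 (0.089 median-ratio), Pdgfra (-0.15 quantile, -0.15 with the largest transcript), Speer4d (0.019 with day 0 VD3 replicate 2 alone), Tnfsf11 (0.49 quantile, 0.49 equal and 0.56 GC-matched subtraction), Vdr (0.35 quantile, 0.61 equal subtraction), Cebpg (0.14 median-ratio, 0.077 equal subtraction) and Ifit2 (0.21 median-ratio, 0.075 equal and 0.025 GC-matched subtraction). The cause was not tested. Deviations of same-numbered libraries of the groups, over all tested genes, had correlations of -0.04, -0.03 and -0.07. These show no pairing but cannot exclude it, because many tested genes have low levels with large counting error. A replicate block gave 3658 higher and 11255 lower over all genes and 1787 and 609 among genes whose mean was 20 RPKM or more. Day 0 depth of 7.12 to 9.72 M reads and its sensory signal limit what can be said of genes under about 10 RPKM.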
